A study of Mus musculus with 49 samples.

Results

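Collagens are triple helical proteins that form the fibres, sheets and filaments of connective tissue, and in the mouse they are encoded by genes whose symbols follow the pattern Col, number, a, number. Every gene with such a symbol that the array's annotation links to at least 1 probe set of a single gene was taken, which gave 42 of the 18194 genes measured in this way. The 42 genes are covered by 82 probe sets, and for each gene the probe set of highest mean signal stands for it. This rule used no difference between groups, but it was set with earlier results of these data known. By the structure of their products, 11 genes are fibrillar collagens, 6 are basement membrane collagens and 9 are FACIT collagens (fibril associated collagens with interrupted triple helices). The other classes are beaded filament collagens with 5 genes, multiplexins with 2, short chain network collagens with 3, the anchoring fibril collagen Col7a1, and transmembrane collagens with 4. Col26a1 was left unclassed.

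The signal was measured in the urinary bladders of 49 adult female C57Bl/J mice, each on an Affymetrix Mouse430_2 array of its own, with no pooling of animals according to the labels. Arsenate, an inorganic form of arsenic, was given in the drinking water at 0.5, 2, 10 or 50 ppm, and control mice drank water without it. One set of mice was harvested after 1 week of exposure at an age of 76 days, and another after 12 weeks at an age of 155 days. The 10 groups of dose and harvest have 5 mice each, with the exception of 0.5 ppm at 1 week with 4. All groups share strain, sex and vehicle, and no genetic change is named. The harvests differ in the age of the mice, in the length of exposure and in the day of harvest. In exposed mice these cannot be told apart from one another. Water mice had no arsenate, and among them age and day of harvest cannot be told apart.

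Fibrillar collagens such as types I, III and V assemble into the banded fibrils that carry tension in the bladder wall, and FACIT collagens sit on the surface of those fibrils. Type IV collagens form the mesh of basement membranes beneath the urothelium and around smooth muscle cells and vessels. Procollagen chains are hydroxylated and folded in the endoplasmic reticulum, trimmed outside the cell and crosslinked by lysyl oxidases.

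Promoter sequences were looked at because several collagen genes moved together between the harvests while others did not. The RefSeq promoter table of build GRCm38.p6 held 36 windows for 33 of the 42 genes. The 250 bases before each listed start were searched on both strands for CCAAT (the letters of a CAAT box), for GGGCGG (the core of a GC box) and for TATAAA (the letters of a TATA box). CCAAT was found in 13 of the 36 collagen windows (36.1%), against 33.8% of all 32851 windows in the table. GGGCGG was found in 21 of the 36 (58.3%), against 32.7% of all windows, and TATAAA in 5 (13.9%), against 12.4%. A match is a description of the letters only, and a window without one says nothing about a factor.

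The following 6 windows are printed from the gene's strand, 5′ to 3′, and end at the base before the first transcribed base of the gene in RefSeq, so that some are shorter than 250 bases. Capitals mark the 3 patterns above or their reverse complements, and no match overlaps another. Col1a2 (chr6:4505368-4505617, plus strand), Col3a1 (chr1:45311288-45311537, plus strand) and Col5a1 (chr2:27886175-27886380, plus strand) are shown as fibrillar genes that were lower at 12 weeks. Col17a1 (chr19:47692043-47692292, minus strand) is shown as the gene called higher at 12 weeks in the comparison of the water groups. That call was lost when any of 8 of the 10 mice was left out. Col4a5 (chrX:141475169-141475369, plus strand) and Col4a6 (chrX:141474096-141474326, minus strand) are shown because these neighbours are transcribed away from each other and their signals were unrelated across mice.
Col1a2: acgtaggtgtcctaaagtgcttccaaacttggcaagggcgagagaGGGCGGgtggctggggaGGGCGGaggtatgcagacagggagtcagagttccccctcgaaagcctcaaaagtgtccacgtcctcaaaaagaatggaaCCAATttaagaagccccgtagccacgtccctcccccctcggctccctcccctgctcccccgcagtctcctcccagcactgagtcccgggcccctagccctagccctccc
Col3a1: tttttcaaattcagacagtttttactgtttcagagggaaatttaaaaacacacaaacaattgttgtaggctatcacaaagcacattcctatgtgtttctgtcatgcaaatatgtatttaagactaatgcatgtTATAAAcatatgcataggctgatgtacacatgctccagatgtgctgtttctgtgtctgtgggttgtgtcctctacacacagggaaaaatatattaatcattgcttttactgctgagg
Col5a1: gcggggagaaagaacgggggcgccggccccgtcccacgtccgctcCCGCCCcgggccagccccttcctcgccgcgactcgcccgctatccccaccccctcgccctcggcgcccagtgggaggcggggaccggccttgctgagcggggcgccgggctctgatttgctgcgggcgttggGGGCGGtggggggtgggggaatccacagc
Col17a1: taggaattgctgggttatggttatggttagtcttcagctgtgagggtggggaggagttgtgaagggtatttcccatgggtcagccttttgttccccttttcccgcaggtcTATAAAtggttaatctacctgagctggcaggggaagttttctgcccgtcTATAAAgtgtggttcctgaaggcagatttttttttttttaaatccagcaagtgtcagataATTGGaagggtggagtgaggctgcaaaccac
Col4a5: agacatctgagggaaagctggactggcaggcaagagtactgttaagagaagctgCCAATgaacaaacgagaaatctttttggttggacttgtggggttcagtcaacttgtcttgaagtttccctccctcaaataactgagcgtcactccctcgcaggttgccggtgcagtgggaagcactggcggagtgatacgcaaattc
Col4a6: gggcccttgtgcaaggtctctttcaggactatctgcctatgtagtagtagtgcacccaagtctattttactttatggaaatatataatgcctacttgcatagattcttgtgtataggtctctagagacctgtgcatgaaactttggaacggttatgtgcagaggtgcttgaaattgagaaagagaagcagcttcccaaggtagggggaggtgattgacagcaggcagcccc
The Col1a2 window holds CCAAT 109 bases before its end and GGGCGG at 205 and 188 bases. The Col3a1 window holds TATAAA 117 bases before its end and neither of the other patterns. In Col5a1 only GGGCGG was found, once on each strand. Col17a1 holds TATAAA at 140 and 91 bases and CCAAT on the reverse strand at 31 bases. Col4a5 has 1 match, a CCAAT at 147 bases, and Col4a6 has 0. Both have GGGCGG in the full windows counted above, wholly or partly in bases left off here, since the printed stretches stop at the gene's outermost RefSeq start.

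Genes were tested where their signal exceeded the 40th percentile on 4 or more arrays, which left 34 of the 42 among 14625 genes. The 8 that did not pass were Col2a1 and Col24a1 (fibrillar), Col4a3 (basement membrane), Col9a2 and Col9a3 (FACIT), Col6a5 (beaded filament), Col10a1 (short chain network) and Col26a1. Their group means lay between 4.24 and 5.58 on the log2(intensity + 16) scale used throughout, on which a signal of 0 has the value 4, and nothing is said here about their expression. Type II, IX and X collagens are known from cartilage, and the list of cartilage and bone markers had 3 of 8 genes above the filter. Every value below is a signal on this scale or a difference of 2 such signals in log2 units. Signals of different probe sets are not comparable as amounts.

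On every array the deposited intensities had been scaled to the same 2% trimmed mean, 500.003 to 500.004. Of the uroplakins, which mark the urothelium of the bladder, Upk1a, Upk1b, Upk2 and Upk3a had 99.1 as their lowest percentile rank among the probe sets on any array. RNA integrity numbers ran from 7.2 to 9.8, with the lowest value on 3 arrays of 2 ppm at 1 week, and they are missing for 2 arrays of 10 ppm at 1 week. The control RNAs added before labelling averaged 10.2 in water mice at 1 week and 10.1 at 12 weeks. In exposed mice at 12 weeks they averaged 9.70 at 0.5 ppm, 9.59 at 2 ppm, 9.11 at 10 ppm and 9.30 at 50 ppm. The hybridization controls did separate the water groups, at 11.54 to 11.72 at 1 week and 11.09 to 11.32 at 12 weeks, and they averaged 11.34 at 0.5 ppm and 11.76 at 10 ppm at 12 weeks. The control RNAs were used as a covariate in an alternative fit given below. The part of the hybridization controls in the results was not tested. Mouse labels begin with a number that is the same within a group; if it marks a cage, cage and group cannot be told apart. Array dates were not analysed here. In bulk tissue, fewer cells of a type and less RNA per cell cannot be told apart, which holds for every difference that follows.

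The comparison of the water groups between the harvests asks how collagen signals differ between mice of 76 and 155 days that drank no arsenate. Collagen genes fell from 1 week to 12 weeks: of the 34 tested, 18 were called lower and 1, Col17a1, was called higher (limma, Benjamini-Hochberg adjusted p under 0.05). In the same comparison 13.4% of all genes tested were called, 7.09% lower and 6.26% higher. The median difference over the 34 genes was -0.64, and over all genes tested it was 0.02. In 15 of the 18 every mouse at 12 weeks lay below every mouse at 1 week, which was so for 4.73% of all genes tested. Genes of the fibrillar class were called lower in 7 of 9 cases with a median of -0.81, basement membrane genes in 2 of 5 with a median of -0.33, and FACIT genes in 3 of 7 with a median of -0.36. Beaded filament genes were called lower in 3 of 4 with a median of -0.87. These class counts were not tested against one another.

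Type I collagen is the main fibril former of connective tissue and is built from the products of Col1a1 and Col1a2. In water mice 1 to 5 Col1a1 had signals of 13.97, 14.18, 14.26, 14.34 and 14.36 at 1 week, and of 12.28, 13.45, 11.92, 12.68 and 12.23 at 12 weeks. All 5 older mice lay below all 5 younger mice, and mouse 2 at 12 weeks was the nearest to them. The difference was -1.71 (SE 0.23, n = 5 and 5, limma adjusted p = 2.8e-06), or 3.27-fold. Col1a2 went from 14.70, 14.66, 14.83, 14.81 and 14.73 to 13.76, 14.47, 13.65, 14.06 and 13.73, again with mouse 2 highest at 12 weeks and no overlap. Its difference was -0.81 (SE 0.13, limma adjusted p = 4.7e-05). A dimmer probe set of Col1a1 gave -0.75 and a dimmer one of Col1a2 gave -1.30, so the order of the 2 genes by size depends on the probe set, while the direction does not.

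Col3a1, whose product forms fibrils together with type I collagen in distensible organs, had signals of 15.02, 15.08, 15.14, 15.12 and 15.11 at 1 week and of 14.22, 14.69, 13.96, 14.39 and 14.19 at 12 weeks. The younger mice were close to each other and all lay above the older mice. The difference was -0.80 (SE 0.12, limma adjusted p = 1.5e-05), and the second probe set of the gene, of lower signal, gave -1.36.

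Type V collagen is a minor fibrillar collagen that starts fibrils and limits their diameter. Col5a2 showed 12.78, 12.74, 12.95, 13.08 and 13.18 at 1 week and 11.61, 11.72, 11.02, 11.57 and 11.21 at 12 weeks, and the groups were more than a log2 unit apart at their nearest points. The difference was -1.52 (SE 0.18, limma adjusted p = 7.0e-07). Col5a1 fell by 1.46 (SE 0.21, adjusted p = 8.0e-06) with no overlap, from a range of 12.01 to 12.58 to one of 10.33 to 11.56. The third chain of the family, Col5a3, changed less, by -0.69 (adjusted p = 0.028). Its call was lost when any of 4 of the 10 mice was left out, and with the mean over its probe sets. Of the remaining fibrillar genes, Col11a1 fell by 1.19 (adjusted p = 0.0084) at a dim signal of 5.61 against 6.79. Col27a1 had a difference of -0.61 (adjusted p = 0.16) and Col11a2 one of 0.40 (adjusted p = 0.49), and neither was called.

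Within the basement membrane class 2 of 5 tested chains were called, and the chains were not tested against each other. Col4a1 and Col4a2, which are transcribed away from each other on chromosome 8 and together form the common type IV network, were both called lower. Col4a1 had 13.80, 14.31, 14.02, 13.90 and 14.16 at 1 week and 13.04, 13.50, 13.04, 13.56 and 13.06 at 12 weeks, with no overlap. Its difference was -0.80 (SE 0.16, limma adjusted p = 6.1e-04), and that of Col4a2 was -0.66 (SE 0.18, adjusted p = 0.012), where the ranges of 12.51 to 12.98 and 11.88 to 12.59 overlapped. Col4a5 and Col4a6, a second such pair on the X chromosome whose chains occur in smooth muscle basement membranes, had differences of -0.26 (SE 0.12, adjusted p = 0.17) and -0.33 (SE 0.13, adjusted p = 0.096) and were not called. A second probe set of Col4a6 gave -0.64 (SE 0.12), as much as Col4a2, and a second one of Col4a1 gave -0.57. Col4a4, a chain best known from the kidney filter, was at 6.97 and 6.99 with a difference of 0.02 (SE 0.22).

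Among FACIT genes, those of types XII, XIV and XVI were called lower. Col14a1 went from 12.26, 12.49, 12.47, 12.55 and 12.60 to 12.03, 11.83, 11.60, 12.04 and 11.73, a difference of -0.63 (SE 0.16, limma adjusted p = 0.0064) with no overlap. Col16a1 differed by -0.85 (SE 0.17, adjusted p = 6.4e-04) without overlap, and Col12a1 by -0.73 (SE 0.20, adjusted p = 0.011) with overlap. With the mean over the probe sets of a gene, the calls of Col12a1 and Col14a1 were lost. The other 4 FACIT genes had dimmer signals and differences from -0.36 (Col19a1) to 0.33 (Col22a1), none of them called. For Col20a1 the probe set used gave 0.27 and another gave -1.10, so no direction is read for it.

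Type VI collagen forms beaded filaments around cells and links them to the fibrils. Its chains Col6a1, Col6a2 and Col6a3 fell by 0.84, 1.04 and 0.89, each without overlap (limma adjusted p = 1.2e-04, 3.5e-05 and 8.6e-04). Col6a2 showed 13.22, 13.32, 13.48, 13.59 and 13.72 at 1 week and 12.29, 12.81, 12.11, 12.63 and 12.30 at 12 weeks. Both multiplexins lie in or near basement membranes, yet of the 2 only Col15a1 was called, with -1.18 (SE 0.18, adjusted p = 1.8e-05). Col18a1, the source of endostatin, had 11.37, 11.44, 11.46, 11.65 and 11.50 at 1 week and 11.21, 11.86, 11.51, 11.50 and 11.37 at 12 weeks. The older mice spread around the younger ones, and the difference was 0.01 (SE 0.11). Of the short chain collagens, Col8a1 fell by 0.80 (adjusted p = 0.015) and Col8a2 fell by 0.93 (adjusted p = 0.0029). The call of Col8a1 was lost with the mean over its probe sets.

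Col17a1, a transmembrane collagen of the hemidesmosomes that anchor basal epithelial cells, was the member called higher. Its signals were 7.74, 7.56, 7.46, 7.64 and 7.74 at 1 week and 8.09, 7.72, 8.58, 8.09 and 8.57 at 12 weeks. The older mice were higher except mouse 2, which lay within the younger group. The difference of 0.59 (SE 0.20, limma adjusted p = 0.044) was no longer called when any of 8 of the 10 mice was left out. Lamb3 and Lama3, which encode chains of the laminin of the same structure, were called higher as well, by 0.61 (adjusted p = 0.0034) and 0.47 (adjusted p = 0.044). Col7a1, whose product forms the anchoring fibrils below that layer, had a difference of 0.37 (SE 0.23) and was not called.

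**Figure D1:**
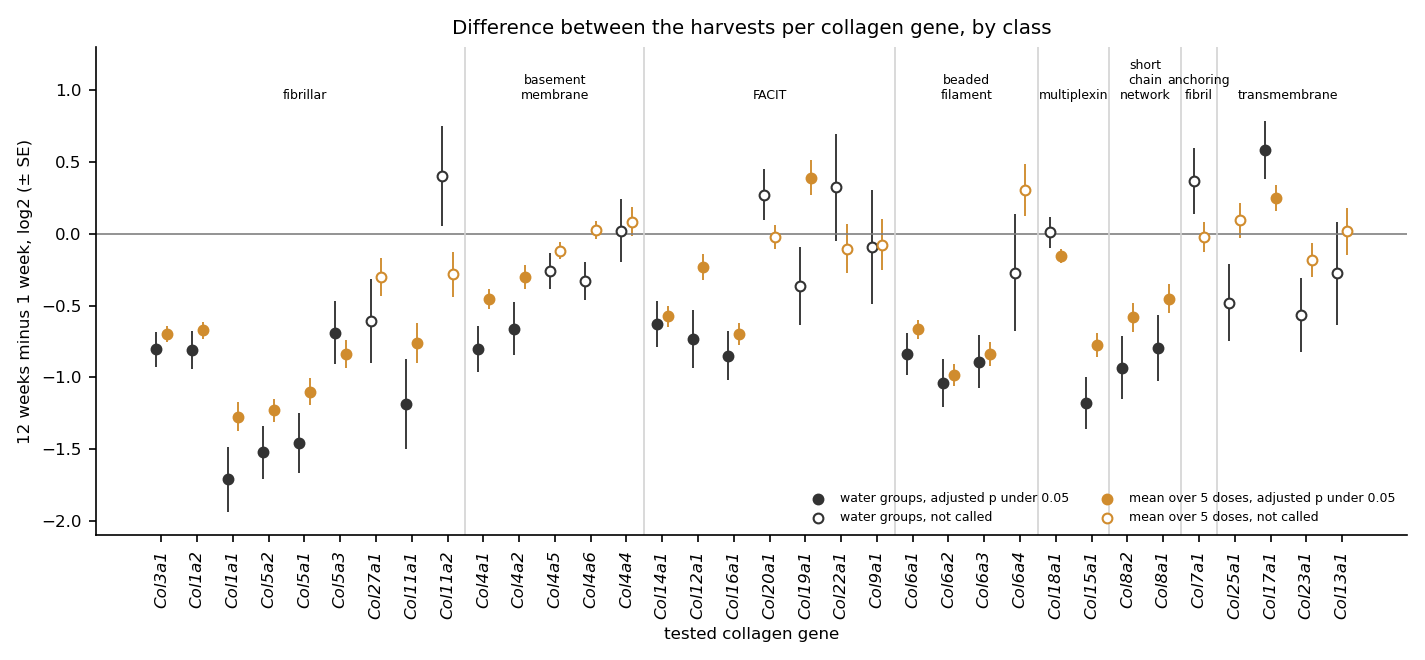
Difference between 12 weeks and 1 week (log2, vertical axis, with its standard error) for each of the 34 tested collagen genes (horizontal axis), ordered by class; black marks the water groups and orange the mean over the 5 doses, and filled points were called. The fibrillar genes Col1a1, Col5a2 and Col5a1 lie lowest in both, at -1.71, -1.52 and -1.46 in water, while Col17a1 is above 0.

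The same harvest comparison averaged over the 5 doses draws on all 49 arrays. There 21 of the 34 collagen genes were called, 19 lower and 2 higher, with a median of -0.30, against 37.7% of all genes tested, 19.3% lower and 18.4% higher. The 18 genes called lower in water were all among the 19. The additional one, Col18a1, differed by only -0.16 (SE 0.05, limma adjusted p = 0.0084). Col17a1 was again higher, by 0.25 (adjusted p = 0.028), and so was the FACIT gene Col19a1, by 0.39 (SE 0.12, adjusted p = 0.0097). The call of Col17a1 was lost in 8 of 16 alternative settings. That of Col19a1 was lost in 3, with the mean over probe sets, or with the poly-A control RNA or the liver markers as a covariate. Its difference was -0.36 in water and -0.13 at 2 ppm but 1.46 at 0.5 ppm, and another probe set gave -0.20 over all doses. Fibrillar genes were called lower in 7 of 9 with a median of -0.76, basement membrane genes in 2 of 5 with a median of -0.12, and FACIT genes in 3 of 7 with a median of -0.10. Col5a2 differed by -1.23 (SE 0.08, adjusted p = 1.0e-15), and all 25 mice at 12 weeks lay below all 24 at 1 week. No other member showed this, and 8 genes or 0.0547% of all genes tested did. Col12a1, at -0.23 (adjusted p = 0.040), lost its call when any of 17 of the 49 arrays was left out.

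At each of the 5 doses the median of the fibrillar class was below 0. The median over 9 genes was -0.81 in water, -0.50 at 0.5 ppm, -0.78 at 2 ppm, -0.93 at 10 ppm and -0.84 at 50 ppm. The basement membrane medians over 5 genes were -0.33, 0.16, -0.13, -0.30 and 0.03 in the same order, and the FACIT medians over 7 genes were -0.36, -0.11, -0.13, -0.36 and -0.41. Col5a1, Col5a2 and Col6a2 had all older mice below all younger mice at each of the 5 doses, and Col1a1, Col1a2, Col3a1, Col6a1 and Col6a3 at 4 of the 5. Over all genes tested, the share with no overlap and the older mice below was 4.73% in water, 5.26% at 0.5 ppm, 5.01% at 2 ppm, 5.58% at 10 ppm and 3.78% at 50 ppm. At 0.5 ppm 2 members lay wholly above instead, Col19a1 by 1.46 and Col6a4 by 1.23, as did 5.24% of all genes tested.

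**Figure D2:**
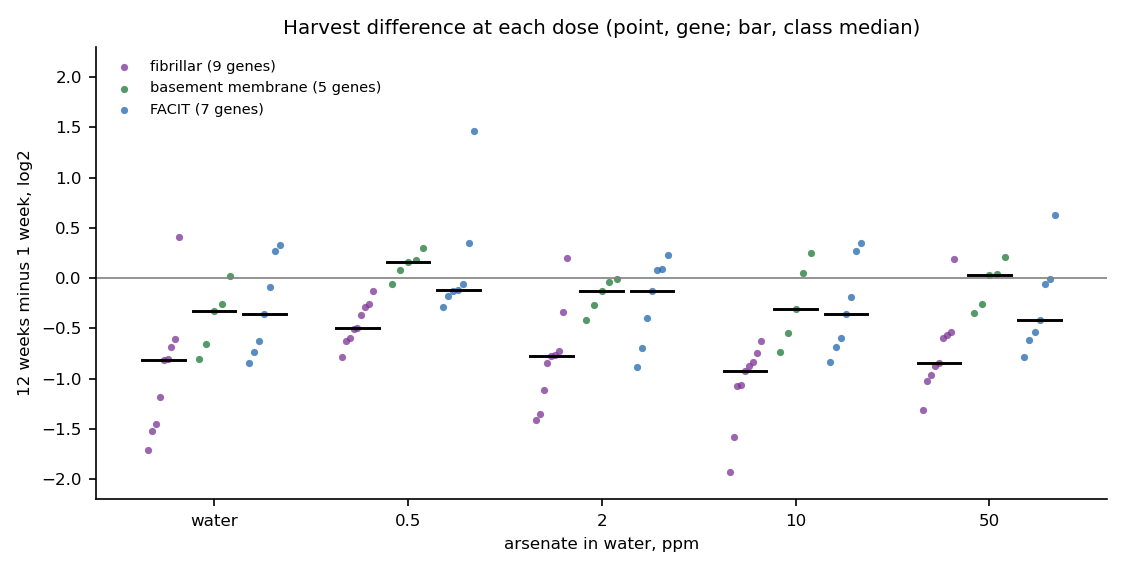
Difference between 12 weeks and 1 week (log2, vertical axis) at each arsenate dose (horizontal axis, ppm) for the fibrillar, basement membrane and FACIT genes; points are genes and bars are class medians. The fibrillar bars lie between -0.93 and -0.50, and the basement membrane bars between -0.33 and 0.16.

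Genes whose products act on collagens or bind them were taken from 6 lists. In the water comparison of the harvests, 8 of 17 tested genes for procollagen folding and modification were called lower and 1 higher, with a median of -0.32. Serpinh1, the chaperone of procollagen, fell by 0.91 (limma adjusted p = 1.7e-04), and Creb3l1, a transcription factor of the secretory pathway, fell by 0.85. P3h2, which hydroxylates prolines mainly of type IV collagen, rose by 0.47 (adjusted p = 0.013). Among genes of procollagen cleavage and crosslinking 6 of 9 fell and 0 rose, with a median of -0.62. They include Pcolce, an enhancer of procollagen C-proteinase, at -0.84 (adjusted p = 7.3e-05), Bmp1, that proteinase, at -0.83, and the crosslinking enzyme Lox at -0.80 (adjusted p = 0.015).

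Of 14 tested genes for proteins bound to fibrils, 8 fell and 0 rose, with a median of -0.54. Fmod, a small proteoglycan that binds type I collagen, fell by 1.11 (limma adjusted p = 1.5e-05), and Sparc, a collagen chaperone in the matrix, fell by 0.90. Of 9 collagen receptors 2 fell, Ddr2 at -1.06 and Mrc2 at -0.57, and the median was 0.05. The collagen degradation list had 4 of 12 genes lower, among them the membrane protease Mmp14 at -0.82 and the cathepsin Ctsk at -0.83. Among partners of type IV collagen in basement membranes, 7 of 16 fell, with Hspg2 (perlecan) at -1.01 and the laminin gene Lama2 at -0.90, and 2 rose. Sparc stands in both the fibril list and the basement membrane list.

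Markers of several cell types moved between the water groups too. Of 9 fibroblast markers 6 were lower, with a median of -0.55, and their summed signal was 120500 to 123100 at 1 week and 85630 to 104900 at 12 weeks. Smooth muscle markers were lower in 5 of 10, with sums of 170700 to 202900 and 137100 to 178400. Liver markers were lower in 4 of 5 with a median of -2.81. Alb averaged 9.85 at 1 week and 6.29 at 12 weeks, and Serpina1b was at 4.73 at 12 weeks, near the bottom of the scale. Skeletal muscle markers were lower in 3 of the 4 tested of 6, with Acta1 at 14.28 and then 13.59 and Ckm at 12.32 and then 11.60, while Myh1 and Myh4 were near the bottom of the scale in both groups. Of the markers of superficial urothelium 0 of 8 were called. With the mean of a marker list as a covariate, the 19 calls became 0 for fibroblast and 2 for liver markers. They became 7 for smooth muscle and 16 for skeletal muscle markers. Between the water groups the fibroblast means did not overlap, at 13.01 to 13.09 at 1 week and 12.30 to 12.68 at 12 weeks. Nor did those of liver (8.12 to 10.60 and 6.68 to 7.31) and smooth muscle (13.35 to 13.73 and 12.88 to 13.31). Such a covariate and the harvest cannot be well told apart, so a lost call assigns no part to the list. Dcn, Lum and Dpt stand in both the fibroblast and the fibril list, and fibroblasts are the main makers of fibrillar collagen. Their part in the result was not tested.

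The levels in all 10 groups follow as group means of log2 signal in the order water, 0.5, 2, 10 and 50 ppm, each over 5 mice (4 at 0.5 ppm, 1 week). Col1a1 had group means of 14.22, 13.77, 14.04, 13.83 and 14.02 at 1 week and 12.51, 13.48, 12.92, 11.90 and 12.70 at 12 weeks, with an SD within a group of 0.16 to 0.59. Col1a2 had 14.74, 14.63, 14.71, 14.57 and 14.78 at 1 week and 13.93, 14.26, 13.94, 13.73 and 14.22 at 12 weeks (SD 0.07 to 0.34). Col3a1 had 15.09, 15.01, 15.00, 15.01 and 15.06 at 1 week and 14.29, 14.50, 14.27, 14.09 and 14.53 at 12 weeks (SD 0.04 to 0.27). All 3 genes had their lowest group mean at 10 ppm, 12 weeks, and at 12 weeks Col1a1 and Col1a2 had their highest at 0.5 ppm. Col5a1 was at 12.33, 11.86, 12.22, 11.79 and 12.31 at 1 week and at 10.87, 11.27, 10.87, 10.71 and 11.29 at 12 weeks (SD 0.20 to 0.53). Col5a2 had 12.95, 12.69, 12.93, 12.77 and 12.79 at 1 week and 11.43, 11.90, 11.51, 11.18 and 11.94 at 12 weeks (SD 0.18 to 0.44). Both type V genes were lowest at 10 ppm, 12 weeks. Col5a3 had 9.03, 9.12, 9.24, 8.84 and 9.05 at 1 week and 8.34, 8.50, 8.40, 7.78 and 8.08 at 12 weeks (SD 0.26 to 0.52), and Col11a1, which encodes a chain of a fibrillar collagen best known from cartilage, was at 6.79, 6.50, 6.76, 6.60 and 6.89 and then at 5.61, 6.00, 5.98, 5.86 and 6.29 (SD 0.12 to 0.75). Both genes were lower at 12 weeks at every dose. Col11a2 was at 5.62, 6.15, 5.78, 6.07 and 6.08 at 1 week and at 6.02, 5.89, 5.97, 5.19 and 5.21 at 12 weeks (SD 0.28 to 0.80), and Col27a1 at 8.34, 8.08, 8.30, 8.48 and 8.32 and at 7.73, 7.96, 7.97, 7.85 and 8.51 (SD 0.14 to 0.90).

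Among basement membrane genes, Col4a1 had 14.04, 13.68, 13.76, 13.68 and 13.74 at 1 week and 13.24, 13.62, 13.35, 12.94 and 13.48 at 12 weeks (SD 0.17 to 0.38). Col4a2 had 12.84, 12.22, 12.55, 12.40 and 12.71 at 1 week and 12.18, 12.52, 12.29, 11.85 and 12.37 at 12 weeks (SD 0.19 to 0.49). In both the 12-week mean at 0.5 ppm came near or above its 1-week mean, while those at the other doses stayed below. Col4a5 was at 11.79, 11.70, 11.74, 11.77 and 11.77 at 1 week and at 11.53, 11.78, 11.62, 11.47 and 11.80 at 12 weeks (SD 0.11 to 0.28). Col4a6 was at 10.03, 9.94, 9.97, 9.58 and 10.02 at 1 week and at 9.70, 10.12, 9.95, 9.83 and 10.07 at 12 weeks (SD 0.07 to 0.40). Col4a4 had 6.97, 6.79, 6.88, 6.87 and 6.86 at 1 week and 6.99, 6.95, 6.84, 6.93 and 7.07 at 12 weeks (SD 0.11 to 0.48). The group means of these 3 chains lay closer together than those of Col4a1 and Col4a2, and Col4a6 was lowest at 10 ppm, 1 week.

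Among FACIT genes, Col12a1 had 11.40, 10.88, 11.17, 11.02 and 11.18 at 1 week and 10.67, 11.22, 10.77, 10.66 and 11.17 at 12 weeks (SD 0.16 to 0.45). Col14a1 had 12.47, 12.23, 12.45, 12.34 and 12.40 at 1 week and 11.85, 12.06, 11.75, 11.50 and 11.87 at 12 weeks (SD 0.13 to 0.52). Col16a1 had 10.84, 10.39, 10.71, 10.36 and 10.85 at 1 week and 9.99, 10.10, 9.82, 9.67 and 10.07 at 12 weeks (SD 0.13 to 0.40). Col14a1 and Col16a1 were lower at 12 weeks at every dose, and Col12a1 was so except at 0.5 ppm. Col19a1 was at 7.25, 6.37, 7.03, 6.73 and 6.76 at 1 week and at 6.89, 7.83, 6.90, 7.08 and 7.39 at 12 weeks (SD 0.21 to 0.69). Col20a1 was at 7.21, 7.47, 7.25, 7.38 and 7.82 at 1 week and at 7.48, 7.34, 7.34, 7.65 and 7.21 at 12 weeks (SD 0.13 to 0.55). Col19a1 had both its lowest and its highest group mean at 0.5 ppm, at 1 and 12 weeks. Col22a1 and Col9a1 stayed between 5.90 and 6.60 in all groups.

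Of the beaded filament genes, Col6a1 had 13.57, 13.18, 13.44, 13.13 and 13.56 at 1 week and 12.73, 13.0, 12.67, 12.42 and 12.73 at 12 weeks (SD 0.12 to 0.38). Col6a2 had 13.47, 13.10, 13.44, 13.12 and 13.48 at 1 week and 12.43, 12.66, 12.34, 11.93 and 12.35 at 12 weeks (SD 0.11 to 0.43). Col6a3 had 12.80, 12.40, 12.85, 12.60 and 12.98 at 1 week and 11.91, 12.32, 11.85, 11.51 and 11.87 at 12 weeks (SD 0.17 to 0.49). At 12 weeks these 3 chains were highest at 0.5 ppm and lowest at 10 ppm, and the dim Col6a4 ranged from 5.04 at 1 week to 6.27 at 12 weeks, both at 0.5 ppm. Col15a1 was at 9.92, 9.41, 9.79, 9.61 and 9.46 at 1 week and at 8.74, 9.20, 8.98, 8.59 and 8.81 at 12 weeks (SD 0.09 to 0.38). Col18a1 was at 11.48, 11.45, 11.55, 11.52 and 11.55 at 1 week and at 11.49, 11.22, 11.41, 11.35 and 11.29 at 12 weeks (SD 0.08 to 0.30). Col15a1 was lower at 12 weeks at every dose, and the Col18a1 means all lay between 11.22 and 11.55. Col8a1 had 8.82, 8.44, 8.66, 8.53 and 8.40 at 1 week and 8.02, 8.57, 8.26, 7.62 and 8.13 at 12 weeks (SD 0.25 to 0.64). Col8a2 had 9.83, 9.54, 9.61, 9.68 and 9.51 at 1 week and 8.90, 9.13, 9.07, 9.03 and 9.13 at 12 weeks (SD 0.13 to 0.65). Col8a1 was lowest at 10 ppm, 12 weeks. Col7a1 was at 6.75, 6.59, 7.08, 6.64 and 6.93 at 1 week and at 7.12, 6.80, 6.70, 6.99 and 6.28 at 12 weeks (SD 0.13 to 0.50). Col17a1 was at 7.63, 7.87, 7.80, 7.78 and 7.46 at 1 week and at 8.21, 7.66, 7.85, 7.92 and 8.14 at 12 weeks (SD 0.12 to 0.44). The transmembrane collagens Col13a1, Col23a1 and Col25a1 had group means of 5.05 to 5.95, 6.51 to 7.08 and 7.73 to 8.44, and none of them was called in any comparison.

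The dose comparisons ask which collagen genes differ between exposed mice and water mice of the same harvest. At 1 week 0 of the 34 genes were called at any dose by limma with Benjamini-Hochberg adjustment, against 0.0479% of all genes tested at 0.5 ppm, 0 at 2 ppm, 0.779% at 10 ppm and 0.335% at 50 ppm. At an unadjusted p under 0.05 there were 10 collagen genes at 0.5 ppm (12.5% of all genes), 0 at 2 ppm (5.93%), 9 at 10 ppm (17.1%) and 3 at 50 ppm (11.6%). The median differences were -0.26, -0.08, -0.19 and -0.04, and the 4 comparisons share the same 5 water mice. The collagen count was 1 at 0.5 ppm without mouse 4 of that group and 1 at 10 ppm without mouse 1 of that group. At 50 ppm it was 1 without water mouse 1. Over all genes tested, leaving out 1 mouse gave 0 to 34, 20 to 437 and 23 to 82 calls at these doses in turn.

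Among the 3 members of smallest p at 0.5 ppm, 1 week, Col19a1 had 6.43, 6.12, 6.83 and 6.10 against 7.17, 7.79, 7.25, 7.05 and 7.01 in water mice. The groups did not overlap, and the difference was -0.88 (SE 0.21, limma adjusted p = 0.091). In this comparison 5 collagen genes lay wholly below water, as did 4.08% of all genes tested. Col4a2 differed by -0.62 (adjusted p = 0.19) and Col16a1 by -0.44 (adjusted p = 0.25). Col16a1 was also first at 10 ppm, with -0.48 (SE 0.15, adjusted p = 0.0996), and there it had 10.53, 10.43, 10.48, 10.15 and 10.22 against 10.69, 10.73, 10.80, 11.14 and 10.81 without overlap. Such separation below water held for 2 collagen genes and 3.08% of all genes tested. At 50 ppm Col20a1 had 7.76, 7.86, 8.04, 7.83 and 7.60 against 7.49, 7.23, 7.13, 6.84 and 7.35, a difference of 0.61 (SE 0.15, adjusted p = 0.070) with all exposed mice above, as were those of 1.46% of all genes tested. No collagen gene passed the threshold at 1 week. The test of any difference among the 5 groups called 0 collagen genes and 1.77% of all genes, and 9 and 19.3% had an unadjusted p under 0.05, with Col20a1, Col19a1 and Col16a1 at adjusted p of 0.075, 0.079 and 0.082. The collagen count was 5 without mouse 5 of 50 ppm and 1 without mouse 1 of 2 ppm. For all genes tested it ran from 83 to 1046 when 1 mouse was left out.

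At 12 weeks 1 collagen gene was called against water, Col7a1 at 50 ppm. It had 7.20, 6.55, 7.59, 7.28 and 6.97 in water mice and 6.70, 6.62, 5.85, 5.76 and 6.48 in mice given 50 ppm. Most exposed mice were lower, but water mouse 2 lay among them. The difference was -0.84 (SE 0.23, limma adjusted p = 0.039), where 4.06% of all genes tested were called and 1.77% were lower. The call was lost without water mouse 2, 3, 4 or 5 or without mouse 2, 3 or 4 of the 50 ppm group. Calls over all genes tested ran from 47 to 1617 when 1 mouse was left out. The next smallest p-values at 50 ppm belonged to Col4a6, at 0.37 (adjusted p = 0.063), and Col5a2, at 0.52 (adjusted p = 0.097).

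At 0.5 ppm, 12 weeks, 0 collagen genes were called, against 0.526% of all genes tested, and 16 had an unadjusted p under 0.05, against 19% of all genes. The median difference was 0.26, against 0.00 over all genes. Col1a1 had 13.20, 13.17, 13.56, 13.59 and 13.87, against 12.28, 13.45, 11.92, 12.68 and 12.23 in water mice. Water mouse 2 lay within the range of the exposed mice and the other 4 below it. The difference was 0.97 (SE 0.24, limma adjusted p = 0.053), and the second probe set gave 0.51. Without water mouse 2 the comparison called 2 collagen genes, and without water mouse 1 or exposed mouse 2 it called 1. Among all genes tested, 0 to 485 were called when 1 mouse was left out. Col4a6 differed by 0.42 (adjusted p = 0.066) and Col19a1 by 0.94 (adjusted p = 0.11), the latter with every exposed mouse above every water mouse, as were 1.51% of all genes tested. In the lists of collagen partners, Ddr2 (0.93, adjusted p = 0.0070), Lama2 (0.72) and Lamc1 (0.58) were called higher.

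At 2 ppm, 12 weeks, 0 collagen genes were called (0.0137% of all genes tested), 1 had an unadjusted p under 0.05 (9.91%), and the median was 0.03. At 10 ppm 0 were called (0.335% of all genes), 5 had an unadjusted p under 0.05 (16%), the median was -0.15, and the smallest p-values belonged to Col6a2 at -0.50 (limma adjusted p = 0.11), Col5a3 at -0.56 and Col1a1 at -0.61. The slope over the ranks of the 5 doses called 0 collagen genes at either harvest (0.267% of all genes at 1 week and 5.25% at 12 weeks). At an unadjusted p under 0.05 there were 1 (9.72%) and 4 (22.5%). Without water mouse 1 or mouse 4 of 10 ppm the slope called 1 collagen gene at 12 weeks. Its calls over all genes tested at 12 weeks ran from 272 to 1892 when 1 mouse was left out.

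**Figure D3:**
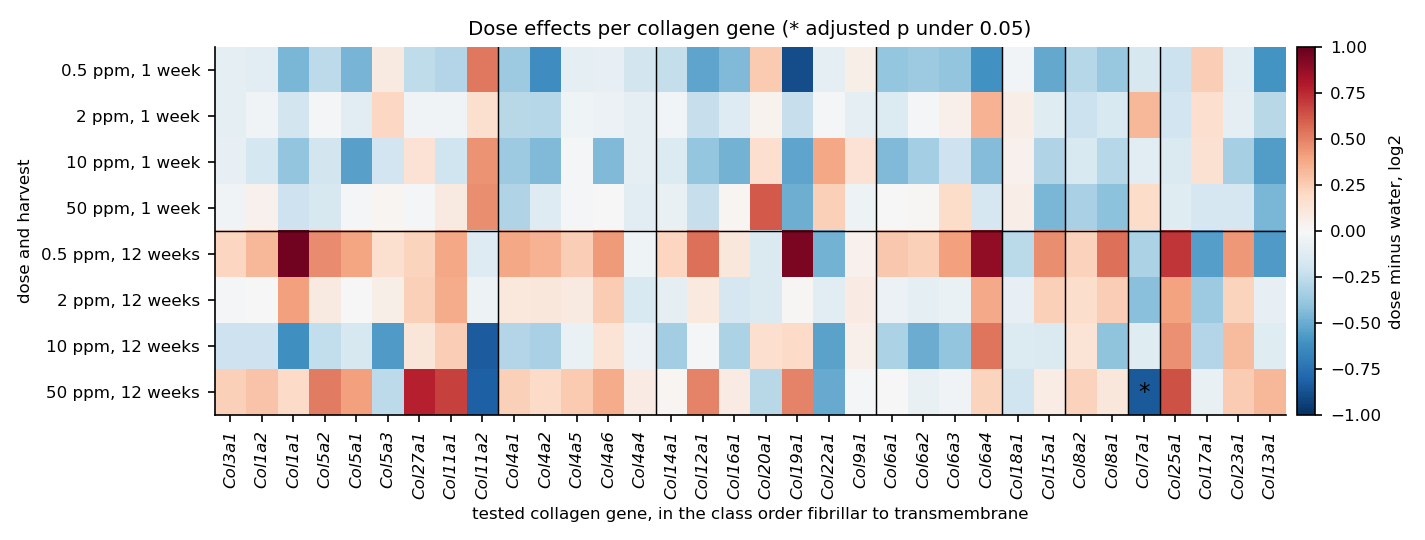
Difference of each dose from water (colour, log2) for the 34 tested collagen genes (horizontal axis, in class order) at each dose and harvest (vertical axis); a star marks a call. The star stands at Col7a1, 50 ppm, 12 weeks, and the row of 0.5 ppm at 12 weeks holds the highest values of Col1a1 and Col19a1, 0.97 and 0.94.

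Although few genes differed from water, the 5 groups at 12 weeks differed among themselves. The test of any difference among them called 5 collagen genes, against 4.94% of all genes tested: Col1a1 (limma adjusted p = 0.0038), Col6a2 (0.032), Col8a1 (0.033), Col4a1 (0.034) and Col5a2 (0.040). When 1 mouse was left out, the count over all genes tested ran from 339 to 1289. The collagen count moved with single mice too. It was 9 without mouse 1 of 0.5 ppm or water mouse 2, 3 without mouse 2 or 3 of 0.5 ppm or mouse 1, 3 or 5 of 10 ppm, and 1 without mouse 4 or 5 of 0.5 ppm or mouse 4 of 10 ppm.

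Collagen signals were higher at 0.5 ppm than at 10 ppm at 12 weeks, a comparison that uses no water mice and was chosen with earlier results of these data known. Of the 34 genes 12 were called higher and 0 lower, where 6.63% of all genes tested were called and 3.54% were higher. The median was 0.42, against 0.02 over all genes. Every mouse of 0.5 ppm lay above every mouse of 10 ppm for 12 members, 10 of them called, and for 3.57% of all genes tested. Called genes were 4 of 9 fibrillar, 2 of 5 basement membrane, 1 of 7 FACIT and 3 of 4 beaded filament genes, with Col8a1 and Col15a1.

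Col1a1 had 13.20, 13.17, 13.56, 13.59 and 13.87 at 0.5 ppm and 11.53, 12.31, 12.24, 11.21 and 12.22 at 10 ppm. The lowest mouse of the lower dose was well above the highest of the other, and the difference was 1.58 (SE 0.24, limma adjusted p = 3.5e-04), or 2.98-fold. The second probe set of Col1a1, of lower signal, gave only 0.18 (SE 0.22), and the mean over its probe sets gave 0.88, still called. With the fibroblast markers as a covariate it was 0.91 and not called. Col8a1, a short chain collagen of vessel walls, had 8.71, 8.28, 8.32, 8.53 and 9.0 against 7.75, 7.80, 7.80, 7.19 and 7.56, a difference of 0.95 (SE 0.20, adjusted p = 0.0045). A second probe set of Col8a1 of similar signal gave 0.33 (SE 0.25), and with the mean over its probe sets the difference was 0.28 and not called; it was also not called with RNA integrity or 3 of the marker lists as covariates. Col4a1 had 13.23, 13.72, 13.70, 13.64 and 13.82 against 13.07, 13.06, 13.03, 12.50 and 13.05, a difference of 0.68 (SE 0.15, adjusted p = 0.0063). In each of these 3 genes the groups did not overlap, and mouse 4 of 10 ppm was the lowest of the 25 mice in all of them. This mouse was the lowest at 12 weeks in 14 of the 34 tested collagen genes, among them Col1a2, Col3a1, Col6a1, Col6a2 and Col6a3.

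The other 9 called members had differences between 0.53 (Col1a2) and 0.81 (Col6a3). Col6a2 was at 0.74 (limma adjusted p = 0.0042), Col6a1 at 0.58 (adjusted p = 0.010) and Col5a2 at 0.72 (adjusted p = 0.021). Col14a1, at 0.56 (adjusted p = 0.045), was called with overlapping groups. With the mean over the probe sets of a gene, the calls of Col1a2, Col5a2, Col5a3 and Col14a1 were lost. Leaving out any of 8 of the 10 mice lost the call of Col14a1, any of 7 that of Col15a1 and any of 5 that of Col1a2. For Col5a3 this held for 4 mice, for Col5a2 for 3, for Col4a2 for 2 and for Col6a3 for 1. Col3a1 and Col12a1 had no overlap but were not called, at 0.41 (adjusted p = 0.052) and 0.56 (adjusted p = 0.095). Without mouse 4 of 0.5 ppm the count of 12 became 7. Without mouse 5 of 0.5 ppm or mouse 4 of 10 ppm it became 6. Leaving out 1 mouse gave 409 to 1191 calls over all genes tested. Adjusted for RNA integrity the collagen count was 3. Of the lists, 2 of 17 folding genes were higher, with Creb3l1 at 1.20 (adjusted p = 1.9e-04), as were 3 of 9 cleavage and crosslinking genes, 5 of 14 fibril proteins and 6 of 16 basement membrane partners, with Lamc1 at 0.78.

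Marker lists differed between the same groups. Of 9 fibroblast markers 5 were higher at 0.5 ppm, with sums of 94040 to 114300 against 87390 to 112000 at 10 ppm. Of 8 markers of superficial urothelium 5 were lower, with sums of 131600 to 162400 against 164000 to 215800. The endothelium markers had 1 of 6 higher, with sums of 2308 to 2710 against 1372 to 2270 that did not overlap. Their means of log2 signal did overlap, at 8.42 to 8.57 against 7.83 to 8.49. The skeletal muscle sums were 14740 to 22450 against 10560 to 16620. The liver sums, of 4739 to 6142 against 6424 to 14080, did not overlap either, but they rest mainly on Ttr. Ttr averaged 12.31 against 12.97, and Alb was at 6.66 in both groups. Apoa1, Serpina1b and Fga were dim, and Fga was higher at 0.5 ppm (5.45 against 5.05). The means of log2 signal over the liver list overlapped, at 6.32 to 7.20 against 6.70 to 7.53. With list means as covariates the 12 calls became 0 for fibroblast, 1 for superficial urothelium and 3 for smooth muscle markers. They became 1 for skeletal muscle and 10 for liver markers. The superficial urothelium means, 13.82 to 14.06 and 14.09 to 14.46, did not overlap between the groups, so its lost calls assign it no part. The part of the lists in the result was not tested.

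**Figure D4:**
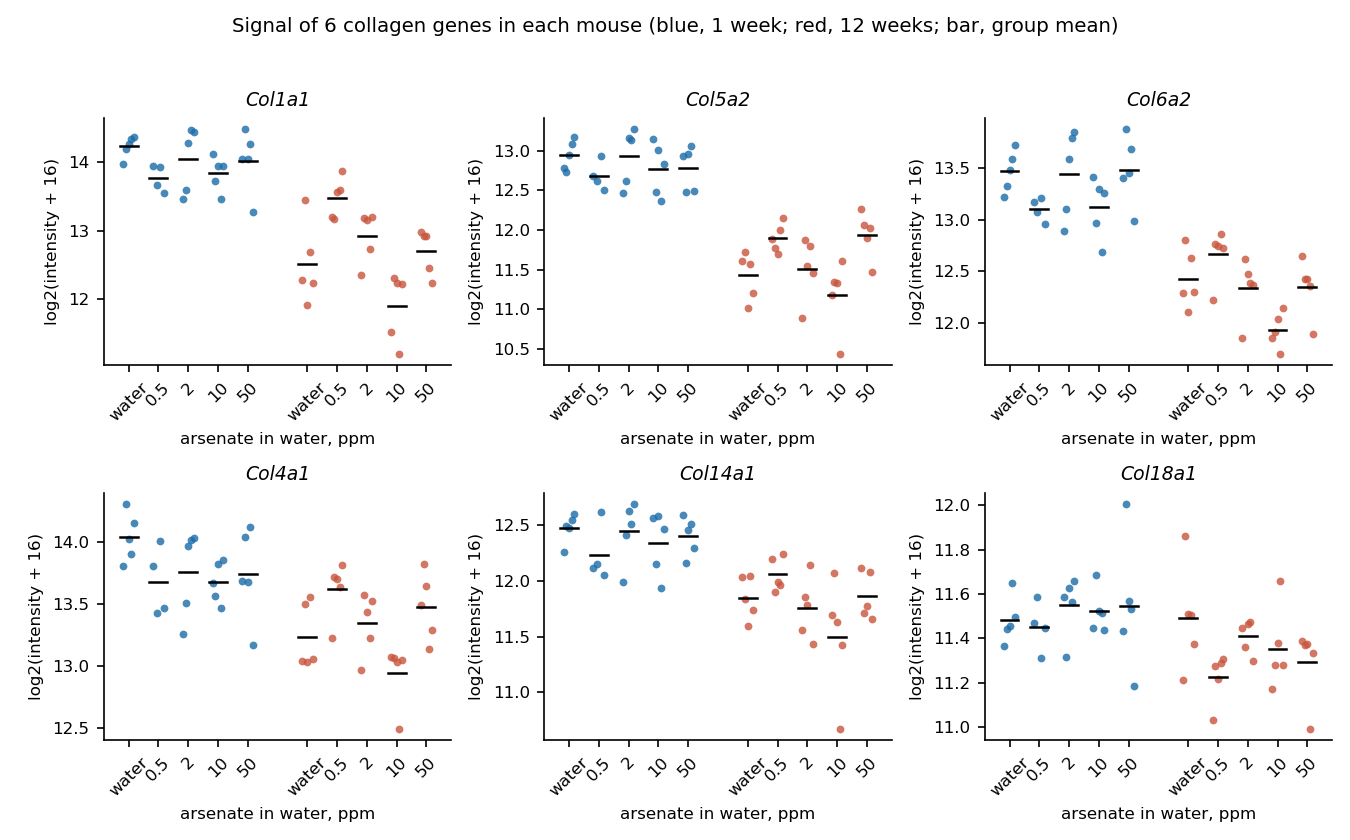
Signal of 6 collagen genes (vertical axes, log2(intensity + 16)) in each mouse by arsenate dose (horizontal axes, ppm), blue for 1 week and red for 12 weeks, with bars at group means. Col1a1, Col5a2 and Col6a2 are lower at 12 weeks in nearly all mice, Col1a1 spans group means from 11.90 at 10 ppm to 13.48 at 0.5 ppm at 12 weeks, and Col18a1 shows little separation of the harvests.

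Whether a dose effect differed between the harvests was tested as the dose effect at 12 weeks minus that at 1 week. For 0.5 ppm 5 collagen genes were called higher, where 4.61% of all genes tested were called and 3.17% were higher. Col19a1, a FACIT gene, had the largest value of these, 1.83 (SE 0.39, limma adjusted p = 0.0061), being -0.88 against water at 1 week and 0.94 at 12 weeks. Col1a1 had 1.42 (SE 0.33, adjusted p = 0.011), from -0.46 at 1 week and 0.97 at 12 weeks, while its second probe set gave 0.76 for the same difference. Col12a1 (1.08, adjusted p = 0.026), Col15a1 (0.97, adjusted p = 0.025) and Col4a2 (0.96, adjusted p = 0.030) were the others. The calls of Col19a1 and Col1a1 held whichever of the 19 mice was left out. These fits gave 260 to 1003 calls over all genes tested, and the collagen count moved as well. The count was 2 without mouse 2 or 3 of 0.5 ppm at 1 week or water mouse 3 at 12 weeks, 3 without water mouse 5 at 12 weeks or water mouse 4 at 1 week, 8 without water mouse 1 at 1 week and 9 without water mouse 2 at 12 weeks.

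For 50 ppm 2 collagen genes were called, both lower, where 7.36% of all genes tested were called and 3.75% were lower. Col20a1 had -0.88 on the probe set used (SE 0.25, limma adjusted p = 0.026), being 0.61 at 1 week and -0.27 at 12 weeks, and Col7a1 had -1.02 (SE 0.33, adjusted p = 0.047). The other 2 probe sets of Col20a1 above the filter gave -0.71 (SE 0.43) and 0.50 (SE 0.51), and the mean over its probe sets gave -0.12 and no call, so no direction is read for the gene here either. With 1 mouse left out, 484 to 1799 of all genes tested were called. The collagen count was 0 without water mouse 3 at 12 weeks or water mouse 4 at 1 week. It was 1 without any of 11 other mice, namely water mice 4 and 5 at 12 weeks and 2 and 3 at 1 week, and mice 3, 4 and 5 at 12 weeks and 2, 3, 4 and 5 at 1 week of 50 ppm. For 2 ppm 0 of 14625 genes were called, with 869 (5.94%) and 1 collagen gene at an unadjusted p under 0.05. For 10 ppm limma called 0 collagen genes against 1.37% of all genes, with 2 (13.9%) at an unadjusted p under 0.05. It called 1 without mouse 1 of 10 ppm at 1 week. Leaving out 1 mouse gave 108 to 339 calls over all genes tested.

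Most of the collagen pairs looked at varied together from mouse to mouse, whether or not their chains share a molecule. Pairs of other genes were not correlated for comparison. The deviations of each mouse from its group mean were correlated over the 49 arrays for 12 pairs, with permutation within groups (100000 permutations, two-sided) and adjustment over the 12 pairs. Col6a1 and Col6a2, chains of 1 trimer whose genes neighbour each other on chromosome 10, had Pearson's r = 0.94 and Spearman's rho = 0.92. Col1a1 and Col1a2 lie on different chromosomes and had r = 0.91 and rho = 0.90, and Col4a1 and Col4a2 had r = 0.90 and rho = 0.86. Each of these had p = 1e-05, the smallest these permutations can give. Leaving out the 2 arrays farthest from the median gave r of 0.93, 0.91 and 0.87. Within the 1 week harvest alone r was 0.98, 0.83 and 0.89, and within 12 weeks 0.90, 0.96 and 0.91.

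Not all pairs of chains varied together. Col4a5 and Col4a6 had r = 0.01 and rho = 0.14 (adjusted permutation p = 0.96 and 0.43). Without the 2 farthest arrays r was 0.25, and within the harvests it was -0.08 and 0.16. Col4a3 and Col4a4 had r = -0.13 (adjusted permutation p = 0.46), with Col4a3 below the filter. Across classes, Col1a1 and Col4a1 had r = 0.81 and Col1a1 and Col14a1 had r = 0.46 (adjusted permutation p = 0.0049). The latter was 0.58 within 1 week and 0.39 within 12 weeks, where it was not called (adjusted permutation p = 0.11), and 0.51 without the 2 farthest arrays. The remaining pairs were Col1a1 with Col3a1 (0.85), Col5a1 with Col5a2 (0.76), Col6a1 with Col6a3 (0.75), Col3a1 with Col5a2 (0.68) and Col12a1 with Col14a1 (0.58). Residuals of bulk tissue share the make-up of the sample and the scaling of the array, and the part of these in the correlations was not tested.

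**Figure D5:**
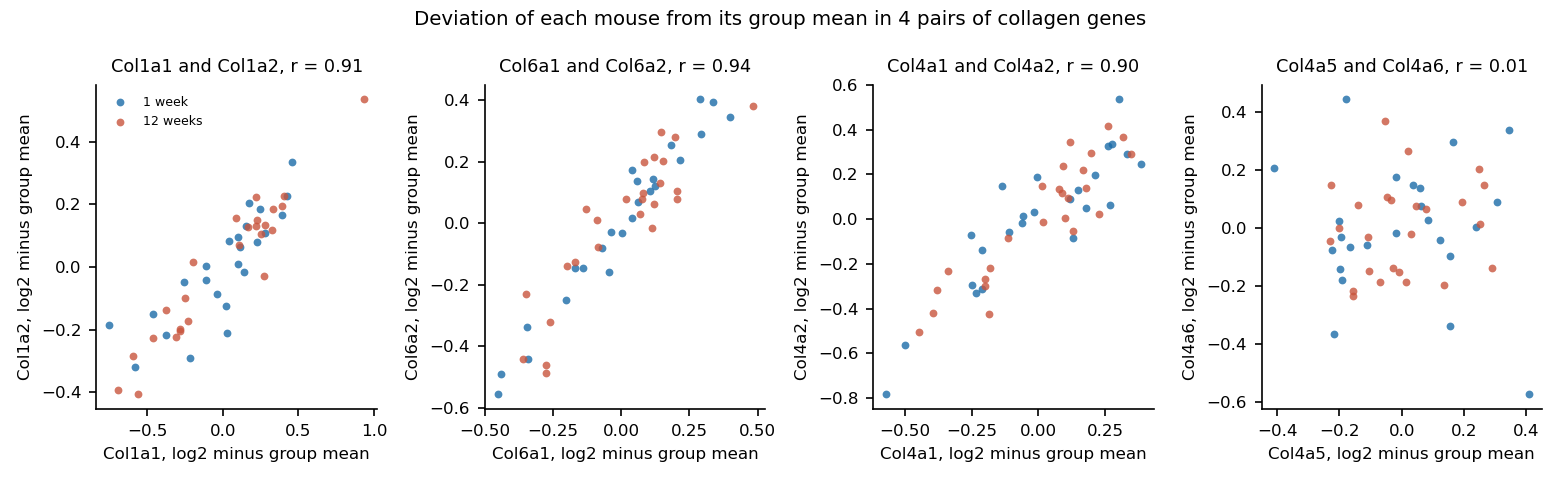
Deviation of each mouse from its group mean for 4 pairs of collagen genes (both axes in log2 units), blue for 1 week and red for 12 weeks, 49 mice in each panel. Points of Col1a1 with Col1a2, Col6a1 with Col6a2 and Col4a1 with Col4a2 lie along a line, with r of 0.91, 0.94 and 0.90, and those of Col4a5 with Col4a6 do not, with r of 0.01.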

How the data were processed

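The total RNA of each bladder was measured on its own array. The deposited values are intensities per probe set that the authors made with GCOS 1.0, per the submitters' processing notes, and they held the same 2% trimmed mean on every array. Of 45101 probe sets, 64 controls were left out, and 34958 name 1 gene, 932 several and 9147 none in the platform annotation. For each of the 18194 genes the brightest probe set on average was used, as log2(intensity + 16), and the 14625 genes that exceeded the 40th percentile on 4 or more arrays were tested. The number of arrays limits the precision.

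Each harvest was fitted alone for the dose comparisons (24 and 25 arrays), and all 49 arrays together for comparisons across harvests, with limma 3.58.1 in R 4.3.3 (lmFit, eBayes with an intensity trend) and Benjamini-Hochberg adjustment over all genes tested, at 0.05, for 19 comparisons. Counts of genes called refer to this threshold. One mouse per array was taken from the labels as the replicate.

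The members, gene lists and comparisons were chosen with earlier results of these data known. Values in every group are given for 17 collagen genes of the main classes and for members called in any comparison, and the 3 members of smallest p in a comparison were considered for naming. Of the partner lists, called genes were named. Of the cell type lists not described with the results, in the water comparison of the harvests 0 of 5 basal urothelium and 0 of 3 adipocyte genes were called, 1 of 6 endothelium and 1 of 4 macrophage genes were lower, 1 of 5 mesothelium and 1 of 3 cartilage and bone genes were higher, and of 3 Schwann cell genes 1 was lower and 1 higher.

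Alternatives covered the offset (1 or 64), quantile normalization, the filter (none or the 60th percentile), other uses of the probe sets, array weights, RNA integrity, control RNA and marker lists as covariates, leaving out arrays with an integrity number under 8, a block by mouse number, 1 fit of all arrays, and leaving out each array. On simulated data with 200 changed genes of 14625, the water comparison of the harvests recovered 53.7%, 79.1% and 100% of 1.5-, 2- and 4-fold changes. The changed genes were not taken from the dimmest ones. Each gene was drawn independently from a normal distribution with no other group difference. The rates therefore need not hold for dim genes or for the real arrays, where genes vary together. Pair correlations used SciPy 1.17.1 and NumPy 2.4.6, and figures matplotlib 3.10.9. Promoter sequences came from RefSeq.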

Additional observations from a re-analysis of the deposited data

Results flagged for a closer look

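In 18 cases the highest or lowest array of a group stood apart from the others by Dixon's test, out of 250 groups of 25 collagen genes, and chance alone flags about 1 in 20 groups. Mouse 1 of 0.5 ppm at 12 weeks was the lowest of its group in 4 of them, with 9.53 for Col16a1, 6.88 for Col17a1, 12.64 for Col6a1 and 12.22 for Col6a2. Leaving out this mouse raised the count of the test among the 12-week groups from 5 to 9.

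Other arrays stood low in fibrillar and basement membrane genes. They were mouse 1 of 2 ppm at 12 weeks in Col1a2 (13.53), mouse 5 of 50 ppm at 12 weeks in Col5a1 (10.94), mouse 4 of 10 ppm at 12 weeks in Col4a1 (12.50), water mouse 1 at 1 week in Col4a2 (12.51) and mouse 2 of 50 ppm at 1 week in Col4a5 (11.36). In other classes mouse 2 of 2 ppm at 1 week stood low in Col18a1 (11.32), as did mouse 4 of 50 ppm at 12 weeks (10.99), and mouse 1 of 50 ppm at 1 week stood low in Col7a1 (6.12).

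Arrays that stood high were mouse 4 of 0.5 ppm at 1 week in Col14a1 (12.62) and Col4a2 (12.51), water mouse 4 at 1 week in Col16a1 (11.14), mouse 2 of 0.5 ppm at 1 week in Col17a1 (8.29), mouse 1 of 10 ppm at 1 week in Col17a1 (8.21) and water mouse 3 at 12 weeks in Col20a1 (7.83).

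The effect of 0.5 ppm differed between the harvests for 5 collagen genes by the test of that difference in limma, with 12 weeks minus 1 week at 1.83 for Col19a1, 1.42 for Col1a1, 1.08 for Col12a1, 0.97 for Col15a1 and 0.96 for Col4a2. The effect of 50 ppm differed for 2, at -0.88 for Col20a1 and -1.02 for Col7a1. For Col20a1 the probe sets disagreed, and their mean gave -0.12.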

How the results depend on the processing

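The fall of collagen genes between the harvests kept its count within 1.5 times under most settings. Unless stated, the counts below are of collagen genes alone. The 19 calls in water became 7 with the smooth muscle, 2 with the liver and 0 with the fibroblast marker mean as a covariate. The means of these lists did not overlap between the water groups, so the lost calls assign no part to them. The 21 calls over all doses became 11 with the liver and 7 with the fibroblast mean. The fibroblast, skeletal muscle and liver covariates were chosen after seeing the data. Leaving out 1 array gave 17 to 20 and 20 to 22 calls, and 1335 to 2058 and 5203 to 5767 over all genes tested. Reversed differences came with the fibroblast covariate for Col14a1 (0.23 in water, 0.060 over all doses, and -0.012 between 0.5 and 10 ppm), Col4a2 (0.051 and 0.22), and over all doses Col12a1 (0.15) and Col8a1 (0.11). Over all doses Col8a1 was also reversed with the liver covariate (0.029) and Col18a1 with the control RNA covariate (0.028). The cause was not tested.

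The 12 calls between 0.5 and 10 ppm became 3 with RNA integrity or smooth muscle, 1 with superficial urothelium or skeletal muscle and 0 with fibroblast markers, and 6 to 14 when 1 array was left out. With the control RNA as a covariate the calls of Col1a2, Col5a3, Col6a1 and Col15a1 in this comparison were lost. The 5 calls of the test among the 12-week groups ranged from 1 to 9 when 1 array was left out. They became 16 with array weights, 9 with all arrays in 1 fit, 8 with quantile normalization, 3 with the mean of probe sets, 1 with RNA integrity, smooth muscle, skeletal muscle or liver and 0 with fibroblast or superficial urothelium markers. The corresponding 0 calls at 1 week became 7 with array weights, 4 with RNA integrity, 3 without arrays of low integrity, and 1 with quantile normalization, every probe set or the liver covariate, with 0 to 5 when 1 array was left out.

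Against water at 12 weeks, 0.5 ppm gave 7 calls with array weights, 2 with all arrays in 1 fit, and 1 with quantile normalization, the 60th percentile, the mean of probe sets or the replicate block, and 0 to 2 when 1 array was left out. The call at 50 ppm became 6 with array weights, 4 with superficial urothelium and 0 with RNA integrity, control RNA, the 60th percentile, smooth muscle or fibroblast, and 0 to 1 when 1 array was left out. At 1 week array weights gave 3 calls at 0.5 ppm, 4 at 10 ppm and 1 at 50 ppm, RNA integrity gave 3 at 10 ppm, every probe set gave 1 at 10 and 1 at 50 ppm, and quantile normalization gave 1 at 50 ppm. Leaving out 1 array gave 0 to 1 in these 3. The slope at 12 weeks gave 3 calls with smooth muscle, 2 with superficial urothelium and 1 with fibroblast, array weights or all arrays in 1 fit, and 0 to 1 when 1 array was left out. Both comparisons of 2 ppm, 10 ppm at 12 weeks, the slope at 1 week and the harvest difference at 2 ppm stayed at 0 calls in all settings run.

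The 5 calls for the harvest difference at 0.5 ppm became 14 with array weights, 10 with quantile normalization and 0 with smooth muscle, superficial urothelium or fibroblast, and 2 to 9 when 1 array was left out. The 2 at 50 ppm became 4 with array weights, 1 with RNA integrity, arrays of low integrity left out, no filter, the 60th percentile, the mean of probe sets, the replicate block, superficial urothelium or fibroblast, and 0 with control RNA, smooth muscle or liver, and 0 to 2 when 1 array was left out. At 10 ppm the 0 calls became 2 with array weights and 1 with every probe set or the mean of probe sets, and 0 to 1 when 1 array was left out.

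Deviations of mice with the same number had a median correlation of 0.0023 over 96 pairs (-0.27 to 0.39). For 384 other pairs it was -0.0043 (-0.47 to 0.29). Such medians cannot exclude a shared block, and the main fits did not pair mice by number. The replicate block gave 1 collagen gene at 0.5 ppm, 12 weeks. It moved no other count by over 1.5 times except the one at 50 ppm above. Of 12 members with a mean under 8, 2 were called in the water comparison of the harvests, and of the 22 brighter ones 17; whether signal set this difference was not tested.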
